A study of Homo sapiens with 10 samples.

Results

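Signal peptidase and the signal recognition particle (SRP) handle secretory proteins at their entry into the endoplasmic reticulum (ER), and the mRNAs of 10 of their protein subunits were followed here in extracellular vesicles (EVs) and cells. Rows of a table of RNA counts per gene were taken where the GENCODE 29 symbol was SEC11A, SEC11C, SPCS1, SPCS2, SPCS3, SRP9, SRP14, SRP54, SRP68 or SRP72, which gave 10 of 94946 rows, 5 for each complex. The genes were chosen by their measured levels in the pellets, where SEC11A and SEC11C were seen to be higher and SRP14 lower at faster spins, so differences of these 10 genes between groups are a description and are given without p-values. Where a threshold on edgeR's adjusted p is used to count them, the count is set beside that of all genes and nothing is read from it. The vesicles came from PC3, a human prostate cancer epithelial line established from a bone metastasis. Pellets of 3 spins are labelled 2.8K, 10K and 100K with no unit and are named 2.8K EVs, 10K EVs and 100K EVs. A pellet is represented by 3 libraries, sets 1 to 3, and 1 library of whole PC3 cells has no replicate. All groups share growth in Dulbecco's modified Eagle medium with 10% fetal bovine serum, L-glutamine and PenStrep, Trizol extraction, and a SMARTer stranded kit for small amounts of total RNA. The labels do not tie the sets to separate cultures, so any p-value reflects only how far these libraries scatter, a scatter that may be technical. PC3 is a single tumour line.

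SRP is a particle of RNA and protein that meets a signal sequence as it leaves the ribosome, slows translation and brings the ribosome to its receptor on the ER membrane. Once the chain has entered the translocon, the signal peptidase complex cuts the signal peptide off. The prostate epithelium is a secretory tissue in which many products, among them kallikreins, pass through this route. SRP54 binds the signal sequence, SRP9 and SRP14 form the heterodimer that slows elongation, and SRP68 and SRP72 form a heterodimer on the other end of the RNA. SEC11A and SEC11C are the alternative catalytic subunits of signal peptidase, and SPCS1, SPCS2 and SPCS3 are its accessory subunits. The genes of the SRP RNA itself, RN7SL1, RN7SL2 and RN7SL3, had 0 counts in all 10 libraries. Of 679 rows with RN7SL names, 9 held a count, with 372 counts over all libraries. How reads with several matches were treated is not known, so these counts cannot show whether SRP RNA was present. Only the protein-coding side of the particle is therefore described.

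Total counts ranged from 5424964 to 28735081 per library. Libraries differed in their content: mitochondrially encoded genes held 12.9% of the counts of 2.8K EV set 1, 4.81% to 4.92% of the other 2.8K EV libraries, 0.826% to 1.04% in 10K EVs and 0.00544% to 0.00802% in 100K EVs. A single noncoding entry, lnc-ARF6-1, held 1.95% to 3.97% of the counts in 2.8K EVs, 5.89% to 7.94% in 10K EVs and 7.41% to 10.7% in 100K EVs. These shares move with the pellets, and their part in the differences below was not tested. The epithelial markers KRT8, KRT18, KRT19, EPCAM and CDH1 summed to 1734 to 2109 CPM (counts relative to a library total of 1000000) in 2.8K EVs, 1508 to 1937 in 10K EVs, 796 to 893 in 100K EVs and 1364 in the cells. The keratins carried this sum, while EPCAM reached at most 10.7 CPM in any EV library and CDH1 at most 11.8, with 0 counts of CDH1 in all 10K EV libraries and 0.287 CPM in the cells. The sum of these markers was lowest in 100K EVs, as several members were, and its part in those differences was not tested. Summed markers of leukocytes reached at most 3.58 CPM, of erythroid cells 1.68, of serum and liver 2.78 and of fibroblasts 43.5. CPM values were scaled between libraries by the TMM method.

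Of the signal peptidase genes the catalytic subunits had the higher levels in the faster pellets. SEC11A (ENSG00000140612.13, GRCh38 chromosome 15, 84669538 to 84716716, minus strand) and SEC11C (ENSG00000166562.8, chromosome 18, 59139477 to 59158836, plus strand) are paralogs. Their coding sequences were 74.1% identical over 501 aligned bases, and the longest identical stretch was 16 bases. The most similar stretch of 90 coding bases is shown, and capitals mark the 18 bases that differ (GENCODE 29 transcripts, coding positions 262 to 351 of SEC11A and 298 to 387 of SEC11C). Exon bases outside the coding sequences, which also take reads, were not compared.
SEC11A: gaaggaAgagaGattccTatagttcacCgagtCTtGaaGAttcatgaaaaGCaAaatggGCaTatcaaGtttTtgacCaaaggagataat
SEC11C: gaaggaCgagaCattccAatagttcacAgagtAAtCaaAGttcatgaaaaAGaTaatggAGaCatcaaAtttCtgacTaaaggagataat
In this stretch 72 of 90 bases match, or 80.0%.

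SEC11A measured 26.6, 56.1 and 29.3 CPM in 2.8K EV sets 1 to 3, 111, 125 and 77.7 CPM in 10K EVs, 179, 125 and 129 CPM in 100K EVs, and 45.2 CPM in the cells. Every 10K EVs and 100K EV library lay above every 2.8K EV library and above the cells, and 10K EVs and 100K EVs overlapped. The means were 37.3 ± 16.3, 105 ± 24.3 and 144 ± 30.1 CPM (SD, n = 3 each). On the log2 scale SEC11A was higher than in 2.8K EVs by 1.47 (SE 0.30) in 10K EVs and by 1.93 (SE 0.30) in 100K EVs, the latter a 3.80-fold difference. SEC11C measured 58.2, 90.2 and 37.0 CPM in 2.8K EVs, 106, 121 and 112 CPM in 10K EVs, 179, 122 and 150.1 CPM in 100K EVs, and 40.1 CPM in the cells. Its 3 pellets did not overlap, although set 2 of 100K EVs was close to the highest 10K EV library. Its difference from 2.8K EVs was 0.86 (SE 0.28) in 10K EVs and 1.26 (SE 0.28) in 100K EVs, and 100K EVs exceeded 10K EVs by 0.40 (SE 0.28). In pellets of vesicles, more particles that carry an RNA and more of it in each particle cannot be told apart.

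The accessory subunits did not share this pattern. SPCS3 (ENSG00000129128.12, chromosome 4, 176319964 to 176332245, plus strand), the accessory subunit whose yeast relative is needed for cleavage, measured 98.6, 57.0 and 37.1 CPM in 2.8K EVs, 18.7, 23.2 and 4.47 CPM in 10K EVs, 16.7, 21.5 and 23.7 CPM in 100K EVs, and 66.1 CPM in the cells. All 2.8K EV libraries lay above all libraries of the faster pellets, which overlapped each other. The log2 fold change of SPCS3 against 2.8K EVs was -2.07 (SE 0.50) in 10K EVs and -1.66 (SE 0.50) in 100K EVs. Its highest value came from 2.8K EV set 1, the library with the most mitochondrial counts, and without that library the log2 fold changes were -1.63 and -1.21. SPCS1 (ENSG00000114902.13, chromosome 3, 52704955 to 52711146, plus strand), a small membrane subunit, ranged from 32.5 to 61.8 CPM in 2.8K EVs, 26.7 to 51.9 CPM in 10K EVs and 18.0 to 26.3 CPM in 100K EVs, with 54.8 CPM in the cells. The 100K EV libraries lay below all others by a narrow margin, with a log2 fold change of -0.93 (SE 0.38) against 2.8K EVs. SPCS2 (ENSG00000118363.11, chromosome 11, 74949247 to 74979031, plus strand), a subunit at the contact with the translocon, ranged from 8.72 to 41.3 CPM in 2.8K EVs, 10.3 to 24.0 CPM in 10K EVs and 10.1 to 17.3 CPM in 100K EVs, with 35.3 CPM in the cells. Its pellets overlapped in every pair, so no order of its levels could be read at this spread.

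**Figure D1:**
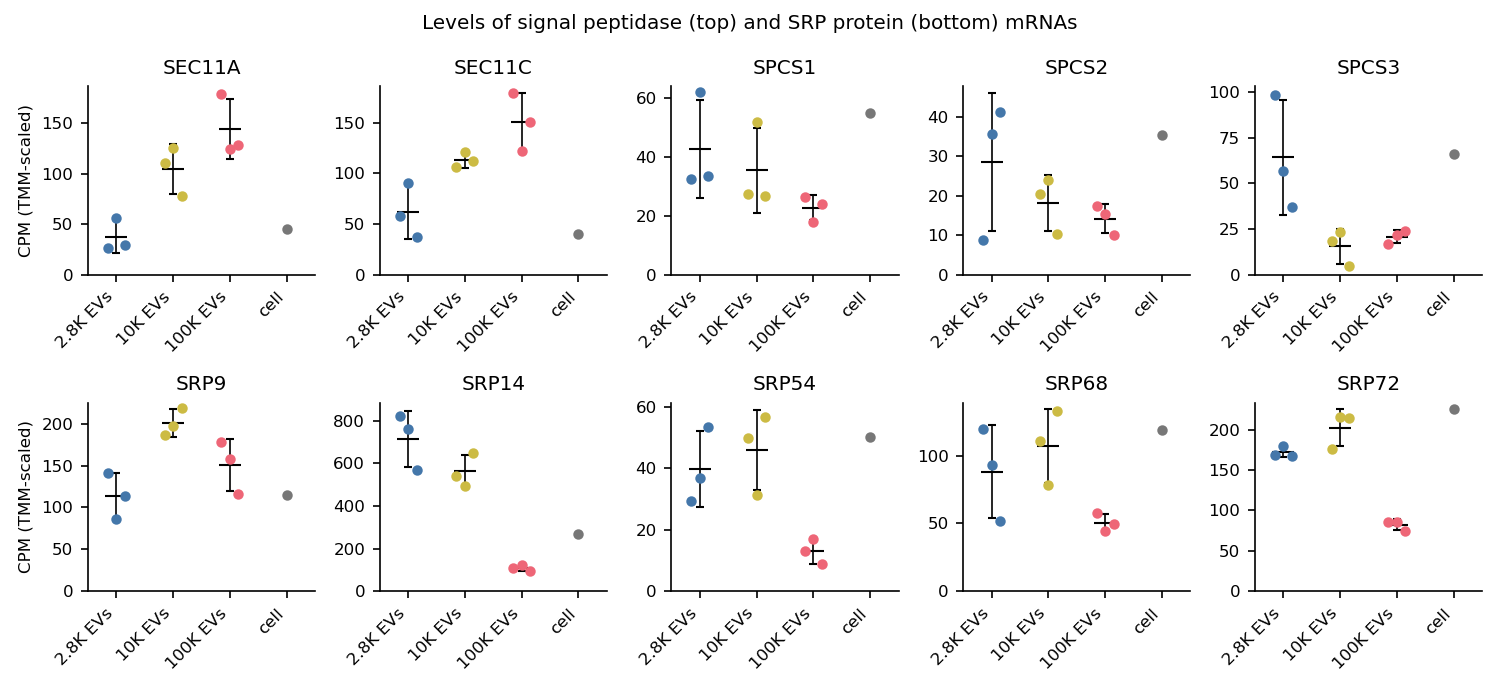
Level of each of the 10 mRNAs in every library, in TMM-scaled CPM on linear axes that start at 0 and differ between panels; points are libraries, horizontal bars are means and vertical bars are SD (n = 3 per pellet, 1 cell library without error). Among the pellets, SEC11A and SEC11C have their lowest mean in 2.8K EVs, and SPCS3 has its highest mean there. SRP14, SRP54, SRP68 and SRP72 have their lowest mean in 100K EVs.

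SRP14 was the most abundant member in CPM in every 2.8K EVs and 10K EV library and in the cells, and had the largest difference between pellets among the 10. It lies at chromosome 15, 40035739 to 40039188, minus strand (ENSG00000140319.10). Processed copies of SRP14 exist in the genome, and the stretch most like the closest copy in the table, SRP14P2, is shown (coding positions 221 to 310, GENCODE 29). The capital marks the single base that differs. The longest identical run of the pair is 78 bases and starts at position 262, so a short read can match both.
SRP14: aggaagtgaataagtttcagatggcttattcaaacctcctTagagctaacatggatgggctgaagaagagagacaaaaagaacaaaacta
SRP14P2: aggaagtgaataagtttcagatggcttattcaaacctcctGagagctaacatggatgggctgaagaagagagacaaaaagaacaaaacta
The copies SRP14P1, SRP14P2 and SRP14P3 were 92.7%, 96.0% and 93.0% identical to SRP14 where they aligned, and together held 0.262% to 3.17% as many counts as SRP14 in the 10 libraries. How reads that match both were treated is not known, so this share cannot show how many reads of SRP14 were lost or misplaced.

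SRP14 measured 821, 760.2 and 567 CPM in 2.8K EVs, 543, 496 and 650.0 CPM in 10K EVs, 107, 123 and 96.5 CPM in 100K EVs, and 270.2 CPM in the cells. The 100K EV libraries were far below all others, the cells lay between them and the slower pellets, and 2.8K EVs and 10K EVs overlapped. The log2 fold change of 100K EVs was -2.74 (SE 0.21) against 2.8K EVs and -2.38 (SE 0.21) against 10K EVs, or 6.67-fold and 5.20-fold lower. Between 10K EVs and 2.8K EVs it was -0.36 (SE 0.20). SRP9 (ENSG00000143742.12, chromosome 1, 225777813 to 225790466, plus strand), whose protein pairs with SRP14, did not follow it. SRP9 measured 141, 86.0 and 113 CPM in 2.8K EVs, 187, 197 and 219 CPM in 10K EVs, 178, 157 and 117 CPM in 100K EVs, and 115 CPM in the cells. The 10K EV libraries were the highest and overlapped no other group, while 2.8K EVs and 100K EVs overlapped. Its log2 fold change was 0.81 (SE 0.23) for 10K EVs against 2.8K EVs, 0.39 (SE 0.23) for 100K EVs against 2.8K EVs and -0.42 (SE 0.23) for 100K EVs against 10K EVs.

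The other SRP members, SRP54, SRP68 and SRP72, were lower in 100K EVs and similar in the slower pellets. SRP54 (ENSG00000100883.11, chromosome 14, 34981957 to 35029567, plus strand), the GTPase of the particle, measured 29.2, 36.9 and 53.5 CPM in 2.8K EVs, 49.7, 31.3 and 56.5 CPM in 10K EVs, 13.2, 16.9 and 8.82 CPM in 100K EVs, and 50.3 CPM in the cells. SRP72 (ENSG00000174780.16, chromosome 4, 56467336 to 56503681, plus strand) measured 169, 179.6 and 168 CPM in 2.8K EVs, 176, 216 and 215 CPM in 10K EVs, 85.9, 86.3 and 74.7 CPM in 100K EVs, and 226 CPM in the cells. For both genes every 100K EV library lay below every other library, and 2.8K EVs and 10K EVs overlapped. The log2 fold change of 100K EVs against 2.8K EVs was -1.64 (SE 0.39) for SRP54 and -1.09 (SE 0.20) for SRP72, and against 10K EVs it was -1.83 (SE 0.39) and -1.31 (SE 0.20). SRP68 (ENSG00000167881.14, chromosome 17, 76038775 to 76072653, minus strand), the partner of SRP72, measured 119.8, 93.3 and 51.7 CPM in 2.8K EVs, 111, 78.4 and 133 CPM in 10K EVs, 57.6, 44.2 and 49.7 CPM in 100K EVs, and 119 CPM in the cells. 2.8K EV set 3 fell within the 100K EV range, so these groups overlapped, while 10K EVs stayed above 100K EVs. Its log2 fold changes were -0.82 (SE 0.30) against 2.8K EVs and -1.10 (SE 0.30) against 10K EVs.

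**Figure D2:**
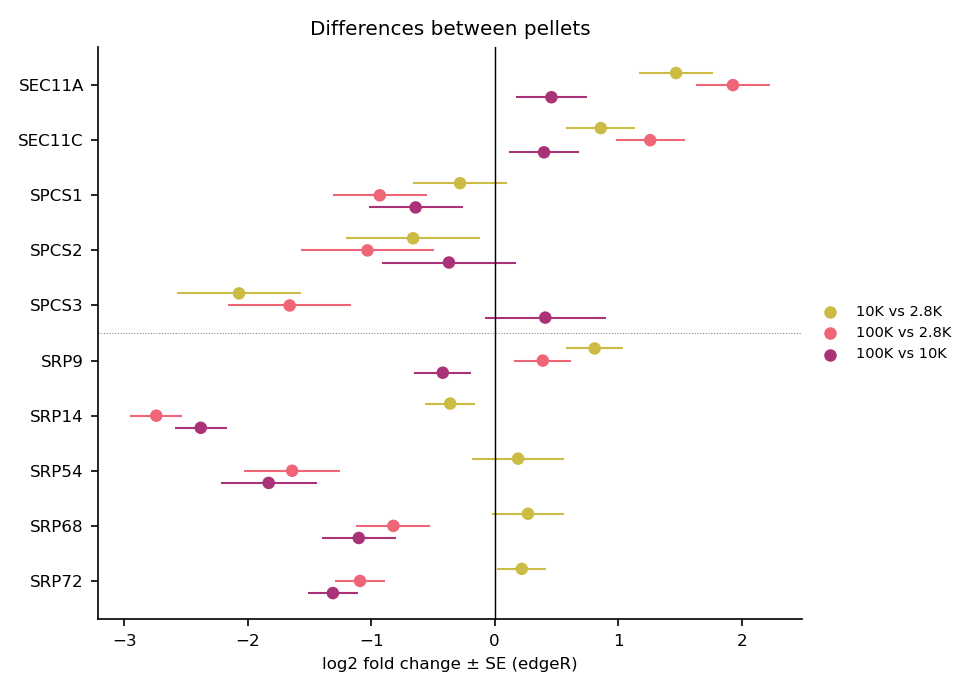
Log2 fold change of each mRNA between pellets (horizontal axis, edgeR estimates of CPM ratios); points are estimates, bars are 1 SE and colours are the 3 pairs of pellets. SEC11A and SEC11C lie to the right of 0 in all 3 pairs, and SRP14 lies farthest to the left at -2.74 and -2.38 for 100K EVs against 2.8K EVs and 10K EVs.

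A gene is called here when its edgeR p-value, adjusted over all 15525 genes tested between pellets, is below 0.05, and all 10 members passed the filter on low counts. Between 10K EVs and 2.8K EVs 3 of 10 members were called, beside 6.38% of all genes. SEC11A and SRP9 were called higher, beside 4.15% of all genes, and SPCS3 lower, beside 2.22%. Without 10K EV set 1, and also without 10K EV set 3, 1 of 10 was called. Those fits called 557 of 16873 and 718 of 16725 genes. Over 19 alternative fits the call of SRP9 was lost in 8 and that of SPCS3 in 3 (without 2.8K EV set 1, 10K EV set 1 or 10K EV set 3), while SEC11C was called in 5, among them DESeq2 and the fit with the set number as a block. SRP9 was not called without 2.8K EV set 2 or 3, without any of the 10K EV sets or without 100K EV set 2. Groups did not overlap for 3 members that were higher (SEC11A, SEC11C and SRP9) and 1 that was lower (SPCS3), beside 11.7% and 9.70% of all genes. Between 100K EVs and 2.8K EVs 7 of 10 members were called, beside 25.8% of all genes. SEC11A and SEC11C were called higher, beside 12.0%, and SPCS3, SRP14, SRP54, SRP68 and SRP72 lower, beside 13.8%. Groups did not overlap for 2 that were higher and 5 that were lower (SPCS1, SPCS3, SRP14, SRP54 and SRP72), beside 23.9% and 20.8%. The call of SRP68 was lost in 13 of 19 alternative fits, and SPCS3 was not called without 2.8K EV set 1, 100K EV set 1 or 100K EV set 2. Without 2.8K EV set 1, SPCS1 and SPCS2 were called lower, with log2 fold changes of -1.08 and -1.45. Between 100K EVs and 10K EVs 4 of 10 members were called, beside 10.9% of all genes. All of them (SRP14, SRP54, SRP68 and SRP72) were lower, where 7.23% of all genes were called lower and 3.70% higher. SRP68 was not called without 10K EV set 1 or 3 or 100K EV set 2 or 3. Groups did not overlap for 1 that was higher (SEC11C) and 6 that were lower, beside 19.2% and 16.7%. The 3 pairs share libraries, and since these values chose the genes, nothing is read from the counts. The median log2 fold change over the 10 members was 0.20, -0.98 and -0.53 in the order of these comparisons, beside -0.01, -0.06 and 0.01 over all genes.

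Ratios of members within a library do not depend on scaling between libraries. SEC11A and SEC11C together held 37.7%, 48.7% and 37.2% of the counts of the 5 signal peptidase genes in 2.8K EVs, 76.6%, 71.3% and 82.1% in 10K EVs, 85.6%, 81.9% and 82.8% in 100K EVs, and 35.3% in the cells. The catalytic subunits were thus the minority of these counts in the cells and the slowest pellet and the large majority in both faster pellets, with no overlap between 2.8K EVs and the others. Between the paralogs the share of SEC11A was 31.3%, 38.3% and 44.2% in 2.8K EVs, 51.1%, 50.8% and 41.0% in 10K EVs, 50.0%, 50.6% and 46.2% in 100K EVs, and 53.0% in the cells (exact 95% interval 51.2% to 54.8%, counting error only). 10K EVs and 2.8K EVs overlapped in this share, and all 100K EV libraries exceeded all 2.8K EV libraries by a narrow margin. Divided by exon length, the mean share of SEC11A was 32.5% ± 5.98 in 2.8K EVs, 41.7% ± 5.58 in 10K EVs and 42.9% ± 2.33 in 100K EVs (SD, n = 3), and 47.0% in the cells.

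The counts of SRP14 relative to SRP9 separated all pellets. The ratio was 5.82, 8.84 and 5.02 in 2.8K EVs, 2.91, 2.52 and 2.97 in 10K EVs and 0.601, 0.779 and 0.828 in 100K EVs, and 2.34 in the cells. In the fastest pellet SRP9 had more counts than SRP14 in each library, the opposite of every other library. The counts of SRP68 relative to SRP72, the other heterodimer, did not separate the pellets, with 0.512 ± 0.200, 0.537 ± 0.151 and 0.616 ± 0.0897 (SD, n = 3) against 0.526 in the cells. SRP14 held 63.1% ± 3.25 of the counts of the 5 SRP members in 2.8K EVs, 50.2% ± 1.34 in 10K EVs, 26.9% ± 2.37 in 100K EVs and 34.6% in the cells.

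**Figure D3:**
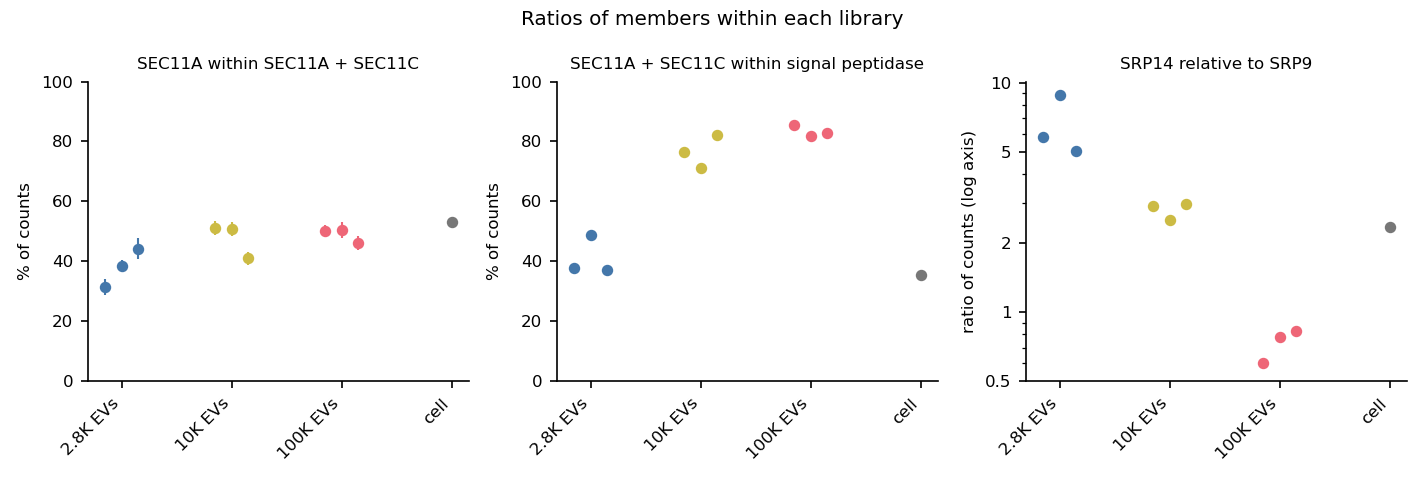
Count ratios within each library: SEC11A as a percentage of SEC11A and SEC11C (left, bars are exact 95% binomial intervals), both as a percentage of the 5 signal peptidase genes (middle), and SRP14 counts relative to SRP9 (right, log axis). Points are libraries, and the ratio of SRP14 to SRP9 runs from 5.02 to 8.84 in 2.8K EVs down to 0.601 to 0.828 in 100K EVs.

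Levels of different genes were compared per length, as CPM per kilobase of all annotated exons. In the cells the order was SRP14 (135), SRP9 (66.7), SRP72 (35.2), SRP68 (15.6), SRP54 (12.9), SPCS2 (11.8), SPCS1 (10.3), SPCS3 (9.68), SEC11C (8.88) and SEC11A (7.86), so by this measure the catalytic subunits were the lowest of the 10 in this single library. Such an order, here and in the pellets below, depends on the length used. All annotated exons of SEC11A and SEC11C hold 5748 and 4511 bases, against 1656 and 1202 in their principal transcripts. In CPM without a length, SPCS2 (35.3) lay below SEC11A (45.2) and SEC11C (40.1) in the cells. In 2.8K EVs SRP14 (357 ± 66.1), SRP9 (65.6 ± 15.9) and SRP72 (26.8 ± 0.995) again led, and the other members, from SEC11C (13.7 ± 5.94) to SEC11A (6.49 ± 2.84), did not differ beyond their SD. In 10K EVs SRP14 (281 ± 39.3), SRP9 (116 ± 9.48) and SRP72 (31.5 ± 3.59) were followed by SEC11C (25.1 ± 1.65) and SEC11A (18.2 ± 4.23), and SPCS3 was last (2.26 ± 1.43). In 100K EVs SRP9 led (87.3 ± 18.2), and SRP14 (54.3 ± 6.54), SEC11C (33.3 ± 6.29) and SEC11A (25.1 ± 5.24) followed, the last pair overlapping. SRP72 was next there with 12.8 ± 1.02 CPM per kilobase, and SRP68, SPCS2, SPCS1, SRP54 and SPCS3 lay between 6.61 ± 0.879 and 3.02 ± 0.524 (SD, n = 3 throughout).

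The comparison with whole cells was not part of the choice of members, but it rests on the same EV libraries, and the cell library has no replicate. It is therefore a description too, and the spread in its SE came from the EV libraries. Calls used the same threshold, adjusted over 22370 genes. In 2.8K EVs 1 of 10 members was called, beside 2.23% of all genes (1.54% higher and 0.693% lower). This was SRP14, with a log2 fold change of 1.41 (SE 0.34), and it was not called with only the compared groups in the fit. In 3 of 3 libraries SRP14 lay above the cells and SRP72 below. The share of all genes that did so was not computed. The other members had log2 fold changes of -0.43 to 0.63.

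In 10K EVs 3 of 10 members were called against the cells, beside 4.43% of all genes (2.82% higher and 1.60% lower). The log2 fold change was 1.50 (SE 0.42) for SEC11C, 1.06 (SE 0.33) for SRP14 and -2.10 (SE 0.49) for SPCS3. Of the 10 members, 4 lay above the cells in 3 of 3 libraries and 4 below. The share of all genes that did so was not computed. SEC11A, with 1.21 (SE 0.42), was not called but was called in 4 of 17 alternatives, among them those without 2.8K EV set 1 or set 3. The call of SRP14 was lost without 10K EV set 3, those of SRP14 and SEC11C without a scaling factor, and that of SPCS3 in DESeq2 and with a minimum count of 30.

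In 100K EVs 7 of 10 members were called against the cells, beside 10.0% of all genes (4.59% higher and 5.46% lower). The catalytic subunits of signal peptidase were higher than in the cells, SEC11A with a log2 fold change of 1.67 (SE 0.43) and SEC11C with 1.91 (SE 0.43). The accessory subunit SPCS3 was lower, with -1.68 (SE 0.50). Of the SRP proteins SRP14 was lower with -1.31 (SE 0.29), SRP54 with -1.95 (SE 0.51), SRP68 with -1.23 (SE 0.37) and SRP72 with -1.46 (SE 0.32). All 10 members, called or not, lay on 1 side of the cells in 3 of 3 libraries, 3 above and 7 below. The share of all genes that did so was not computed. SPCS1 (-1.27, SE 0.51), SPCS2 (-1.31, SE 0.66) and SRP9 (0.39, SE 0.36) were not called. SPCS1 was called lower without 2.8K EV set 1 and with no scaling factor. With only the compared groups in the fit both SPCS1 and SPCS2 were called lower, which made 9 of 10. That fit called 5295 of 16933 genes, against 2247 of 22370 in the main fit. The call of SPCS3 was lost without 10K EV set 1, without 100K EV set 1 and with a minimum count of 30, that of SRP68 without 100K EV set 2, and both in DESeq2. The calls of SEC11A, SEC11C, SRP14, SRP54 and SRP72 held in all 17 alternatives. All of these use the same cell library, so they cannot show how far another cell library would differ. The median log2 fold change of the members against the cells was -0.29, -0.14 and -1.29 in 2.8K EVs, 10K EVs and 100K EVs, beside 0.00, -0.04 and -0.06 over all genes.

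**Figure D4:**
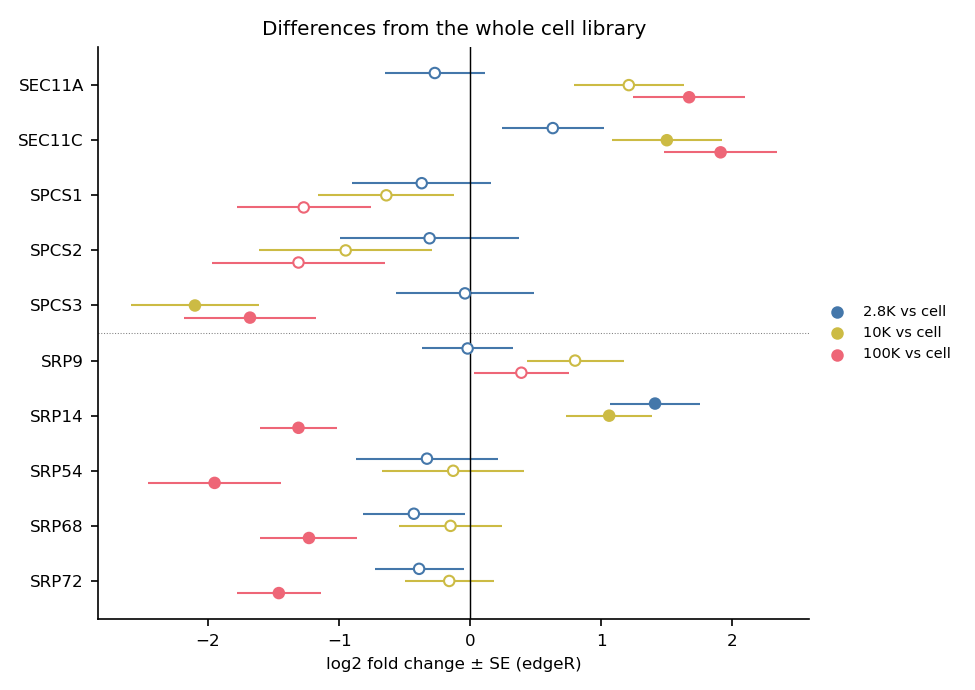
Log2 fold change of each mRNA in each pellet against the single cell library (edgeR estimates, bars are 1 SE, filled points have an adjusted p below 0.05). SRP14 lies right of 0 in 2.8K EVs (1.41) and 10K EVs (1.06) and left of 0 in 100K EVs (-1.31), while SEC11A and SEC11C lie farthest right in 100K EVs (1.67 and 1.91).

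The members differ in ways that the choice did not use. The principal transcripts of SEC11A and SEC11C have 1656 and 1202 bases and 50.3% and 51.5% GC. Those of SPCS1 (832 bases) and SRP14 are shorter than both, and that of SRP68 has more GC than SEC11A. The 5' untranslated regions of SEC11A and SEC11C, of 641 and 472 bases, are the longest of the 10. SPCS3, low in the faster pellets, has the longest transcript (4571 bases), with 3915 bases of 3' untranslated region and 35.8% GC. The SRP14 transcript, with 1077 bases and 43.5% GC, and the SRP9 transcript, with 1480 bases and 35.7% GC, are both short, yet their levels moved apart. SRP68 (2649 bases, 51.2% GC) and SRP72 (4136 bases, 40.0% GC) differ in both features and had similar ratios in all pellets. With 10 genes these features are a description only.

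Some counts are uncertain because other genes share sequence with a member. SPCS2P4 is 99.6% identical to the coding sequence of SPCS2, with 405 of 681 bases in an unbroken identical run, and its counts were 60.1%, 21.1% and 73.1% as many as those of SPCS2 in the 10K EV libraries but 0.00% to 21.1% in the other 7. With the copy's counts added, the log2 fold change of SPCS2 in 10K EVs against 2.8K EVs was -0.22 in place of -0.66. SRP9P1 is identical to the SRP9 coding sequence over all 261 bases and held at most 2.10% as many counts. How reads that match both were treated is not known, so this share cannot show how many reads are missing from SRP9. SRP72P1 and SRP72P2 held at most 0.445% as many counts as SRP72. SRP54-AS1, an opposite-strand neighbour of SRP54 that shares no exon base with it, had 18 counts in the cell library and 0 in the EV libraries. Exons of SPCS1 overlap those of NEK4 on the opposite strand over 2698 of 5324 bases and those of GLT8D1 over 397. NEK4, a kinase gene, measured 44.7 ± 11.9, 83.6 ± 16.3 and 113 ± 20.1 CPM in 2.8K EVs, 10K EVs and 100K EVs (SD, n = 3), an order opposite to that of SPCS1. Since it is not known whether the counting used strand, reads of this pair may not be told apart.

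Other genes of the same route were counted in 100K EVs against 2.8K EVs, where 25.8% of all genes were called. Of the SRP and translocon partners 8 of 16 tested fell and 0 rose in edgeR (in edgeR 0 were higher at an unadjusted p below 0.05, and in DESeq2 0 were called higher and 1 was higher at an unadjusted p below 0.05), with a median log2 fold change of -0.60 (SEC61A2 was too low to test). Among them SRPRA, the receptor subunit that meets SRP54, fell by 1.03 (SE 0.28, edgeR adjusted p = 0.0106), from 89.5 ± 26.6 to 44.6 ± 7.94 CPM. SEC61G, a small subunit of the translocon, fell by 1.57 (SE 0.30, edgeR adjusted p = 0.000768), BTF3, a subunit of the nascent chain-associated complex, by 1.55 (SE 0.24, edgeR adjusted p = 8.47e-05), and SSR2, a subunit of the translocon-associated complex, by 1.25 (SE 0.31, edgeR adjusted p = 0.00604). SRP19, an SRP protein outside the members that helps to assemble the particle, did not pass (log2 fold change 0.08, SE 0.61, edgeR adjusted p = 0.955). Nor did SRPRB, the membrane anchor of the receptor (0.77, SE 0.48, edgeR adjusted p = 0.280). The list count was 5 without 2.8K EV set 2 or without 100K EV set 2. Those fits called 3626 of 16431 and 3051 of 17050 genes. Without 2.8K EV set 1, 1 partner was called higher, TRAM2, a gene named after its values were seen. Against the cells SRPRA, at 159 CPM there, fell by 1.83 in 100K EVs (SE 0.38, edgeR adjusted p = 3.70e-05).

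Of the subunits of oligosaccharyltransferase, which adds glycans to chains beside signal peptidase, 7 of 12 fell and 1 rose in 100K EVs against 2.8K EVs, with a median log2 fold change of -1.03. The structural subunits DDOST and RPN2 fell by 2.75 (SE 0.37, edgeR adjusted p = 2.13e-05) and 2.64 (SE 0.24, edgeR adjusted p = 3.73e-07), and the small subunit OST4 by 2.28 (SE 0.35, edgeR adjusted p = 7.48e-05). RPN2 went from 262 ± 54.4 CPM in 2.8K EVs to 86.1 ± 16.1 in 10K EVs and 42.6 ± 6.02 in 100K EVs. OSTC, a subunit that links the complex to the translocon, rose by 0.97 (SE 0.29, edgeR adjusted p = 0.0184). With no scaling factor, and without 2.8K EV set 2, 100K EV set 1 or 100K EV set 3, no subunit was called higher. The count of 8 was 5 without 2.8K EV set 2 and 4 without 100K EV set 1 or set 3. Those fits called 3626 of 16431, 2807 of 17125 and 2937 of 17014 genes.

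Of the genes that insert or target membrane proteins without SRP, 5 of 18 fell and 1 rose, with a median log2 fold change of -0.08, near that of all genes. GET4, a part of the complex that hands tail-anchored proteins on, fell by 2.64 (SE 0.48, edgeR adjusted p = 0.000439), and the ER membrane complex subunits EMC4 and EMC1 fell by 2.41 (SE 0.32, edgeR adjusted p = 1.61e-05) and 1.93 (SE 0.39, edgeR adjusted p = 0.00101). ASNA1 (log2 fold change -1.63) and BAG6 (-1.56), which also fell, are named only to complete the count, after their values were seen. WRB, the receptor subunit for tail-anchored proteins, rose by 2.49 (SE 0.42, edgeR adjusted p = 0.00021), from 9.02 ± 4.84 CPM in 2.8K EVs to 22.8 ± 0.409 in 10K EVs and 51.4 ± 8.67 in 100K EVs. Of 8 other signal and presequence proteases 1 fell and 1 rose, with a median of 0.14. HM13, the signal peptide peptidase that cuts the peptides signal peptidase releases, fell by 1.73 (SE 0.25, edgeR adjusted p = 4.98e-05), and its relative SPPL2A rose by 1.46 (SE 0.32, edgeR adjusted p = 0.00187). Of these proteases 4 were called without 2.8K EV set 3, in a fit that called 3890 of 16450 genes.

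**Figure D5:**
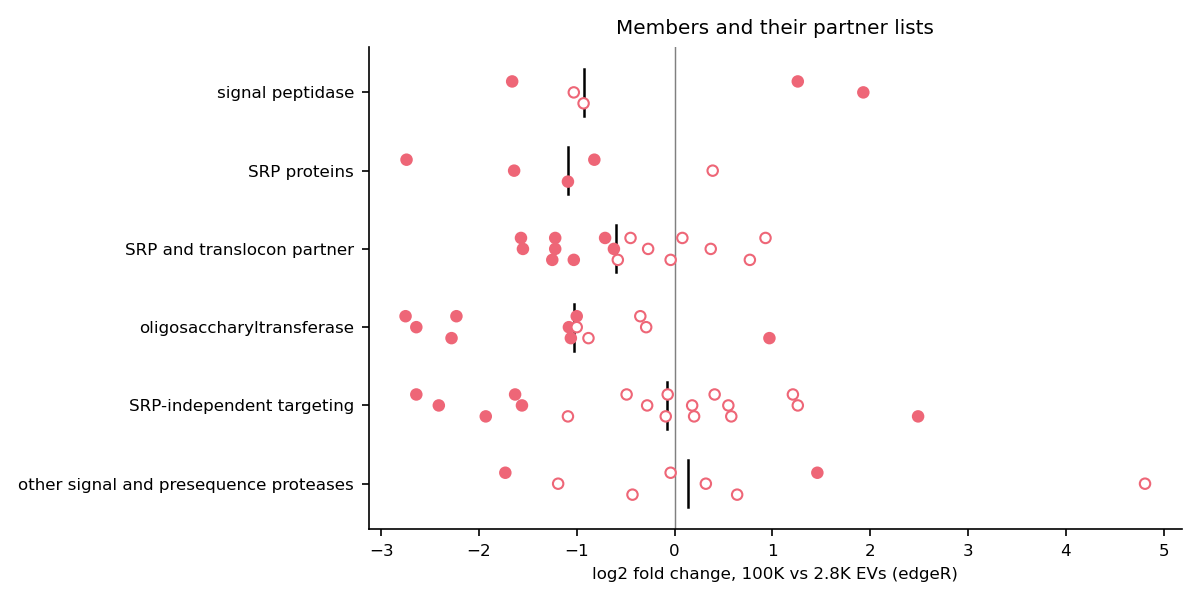
Log2 fold change in 100K EVs against 2.8K EVs (horizontal axis) of the signal peptidase and SRP members and of 4 lists of other genes of the route; each point is a gene, filled where the adjusted p is below 0.05, and black bars are list medians. The SEC11 paralogs stand to the right at 1.26 and 1.93 while 4 of 5 SRP members are filled on the left.

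Likeness to SEC11A and to SRP14 was measured as Pearson's r of log2(CPM + 0.5) over the 9 EV libraries among 8870 genes with a mean CPM of at least 10. These libraries share pellet and depth differences, so the values are a description. The genes most like SEC11A were TXNL4A (0.982), METTL9 (0.981), HAUS6 (0.979), KIF13A (0.974) and BANP (0.974). Their mean levels were all ordered 2.8K EVs, 10K EVs, 100K EVs from low to high, as in TXNL4A with 101, 216 and 298 CPM. SEC11C had an r of 0.936 with SEC11A. The genes most like SRP14 were AHSA1 (0.995), MAF1 (0.994), ILF2 (0.994), AP2M1 (0.994) and CFL1 (0.993). CFL1, which codes for the actin-severing protein cofilin, measured 939 CPM in 2.8K EVs, 758 in 10K EVs and 199 in 100K EVs. Among the members SRP72 had an r of 0.945 with SRP14, SRP54 of 0.886, SRP68 of 0.775, SRP9 of -0.058 and SEC11A of -0.706. With Spearman's rho in place of Pearson's r, 0 of the 5 genes named for SEC11A and 1 of the 5 for SRP14 were again in the top 5.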

How the data were processed

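Total RNA of 9 EV libraries and 1 cell library of PC3 was analysed from a table of counts. The deposited values are whole-number read counts per gene that the authors did not normalize. Per the submitters' processing notes the tools were STAR 2.6.1d and featureCounts 1.6.3 on GRCh38, after bcl2fastq 2.19.1.403 and cutadapt 2.7. The annotation, strand setting and treatment of reads with several matches were not given in the sources used here.

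Groups came from the sample titles. Symbols, coordinates, exon lengths and transcript sequences came from GENCODE 29. The members and lists were chosen with earlier results of these data known. Genes were tested with edgeR 4.0.16 in R 4.3.3 (filterByExpr with a minimum count of 10, TMM, quasi-likelihood F-test, Benjamini-Hochberg adjustment over all genes, threshold 0.05). Pellets were compared in the 9 EV libraries (15525 genes, median prior degrees of freedom 11.7), and pellets with cells in all 10 libraries (22370 genes). There the median prior degrees of freedom were infinite, so genes with that value take their spread from a shared trend. SE is the absolute log2 fold change divided by the square root of F. The scripts were tested on simulated data. CPM uses TMM factors of all 10 libraries, and 3 counts, the most that a count of 0 allows, equal 0.0862 to 0.551 CPM (counting error only, since reads are not independent molecules).

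Alternatives were DESeq2 1.42.0 and its size factors, no scaling, removal of mitochondrially encoded genes and lnc-ARF6-1, no filter or a minimum count of 30, other sets of libraries, the set number as a block, and leaving out each EV library. Adding copies' counts to members was chosen after seeing the data. All members are named. Listed genes are named if among the 3 highest or 3 lowest called in 100K EVs against 2.8K EVs, or if they are SRP19, SRPRA or SRPRB, and 5 genes are named for likeness, leaving out clone, catalogue and pseudogene names. No 2 libraries of the same pellet were alike within sampling noise. The result of 1 marker list is not reported here.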

Additional observations from a re-analysis of the deposited data

How the results depend on the processing

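Removing the scaling factor moved the median of all genes to -0.21 for 100K EVs against 2.8K EVs and to -0.42 against the cells. For 100K EVs against 10K EVs it was -0.01. With the set number as a block the median was 0.12 for 100K EVs against 2.8K EVs and 0.13 against 10K EVs. Without 2.8K EV set 2 or 3 it was 0.07 for 100K EVs against 2.8K EVs. Member differences are relative to such shifts. Of 10 members, 0 were called in 2.8K EVs against the cells with only the compared groups in the fit, beside 171 of 21104 genes. In 10K EVs against the cells without a scaling factor 1 was called, beside 1210 of 22370 genes. Leaving out each EV library gave 1 to 3 members called in 10K EVs against 2.8K EVs, 5 to 7 in 100K EVs against 2.8K EVs and 3 to 4 in 100K EVs against 10K EVs. Over all genes, these fits called 557 of 16873 to 1173 of 16745, 2807 of 17125 to 4137 of 16745 and 979 of 17125 to 2549 of 16745. Against the cells, the members called were 1 to 1, 2 to 4 and 6 to 8 for 2.8K EVs, 10K EVs and 100K EVs. Over all genes, 357 of 22109 to 752 of 21479, 775 of 22017 to 1522 of 21744 and 1710 of 22214 to 2974 of 21744 were called there. In the same fits of 100K EVs against 2.8K EVs, the lists gave 5 to 8 (SRP and translocon partners), 4 to 8 (oligosaccharyltransferase), 6 to 7 (SRP-independent targeting) and 2 to 4 (proteases). The share of SEC11A ran from 34.8% to 41.3% in 2.8K EVs, 45.9% to 51.0% in 10K EVs and 48.1% to 50.3% in 100K EVs, and per exon length it was 41.7% in 10K EVs and 42.9% in 100K EVs. The cause of these differences was not tested.

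Against the cells, 10 log2 fold changes of members that were not called turned positive. In 2.8K EVs these were SPCS2 without set 1 (0.13, range over left-out libraries -0.66 to 0.13), SPCS3 with DESeq2 size factors (0.08), with DESeq2 (0.08), without set 2 (0.04) and without set 3 (0.24, lowest without set 1 at -0.49), and SRP9 with DESeq2 size factors (0.09), with DESeq2 (0.09) and without set 2 (0.15). In 10K EVs they were SRP54 (0.08) and SRP68 (0.03), both without set 2, against -0.31 and -0.33 without set 3.

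Whether the set numbers pair the libraries was not settled. Across pellets, 8 of 9 libraries correlated best with a library of their own number. The correlations of deviations between same-numbered libraries were small, from -0.0128 to 0.0595. The main fits did not use the set number. With the set number as a replicate block, 4, 7 and 4 members were called in 10K EVs against 2.8K EVs, 100K EVs against 2.8K EVs and 100K EVs against 10K EVs. Over all genes, 1075, 3964 and 1875 of 15525 were called there. Of the lists, 8, 8, 6 and 2 genes were called in 100K EVs against 2.8K EVs. No paired analysis was possible for the cells because their library carries no set number. The lowest count of a member in an EV library was 47, for SPCS3 in 10K EV set 3.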
